A study of Mus musculus with 157 samples.

Results

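Common myeloid progenitors (CMP) were compared with multipotent progenitors (MPP) in 8 of the 157 libraries of a mouse blood cell atlas, chosen by their cell type label. They were 2 input RNA-seq libraries of each cell type and 2 libraries of each made from RNA pulled down with an antibody against N6-methyladenosine (m6A IP). The atlas covers 16 cell types, and every group used here is labelled wild type. Input, IP and Mettl3-set libraries are also labelled untreated. The labels give no age, sorting gate, animal or batch, and they do not say that replicates came from separate animals. P-values therefore measure the spread between libraries of the same label, shared over all cell types of each fit, and this spread may be technical. Wild-type CMP and MPP libraries from the series' Mettl3 experiment (8 libraries, 2 input and 2 IP of each cell type) share no library with the atlas and were analysed apart. A further 4 libraries measured new RNA after labelling with 4-thiouridine for 3 h.

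Multipotent progenitors are the immediate offspring of haematopoietic stem cells and can form both myeloid and lymphoid cells. They are classically sorted as cells that carry the surface proteins Sca-1 and Kit. Common myeloid progenitors carry Kit and Cd34 but lack Sca-1, and they form granulocytes, monocytes, erythroid cells and megakaryocytes. m6A is a methyl mark on adenosines inside messenger RNA, placed by the Mettl3-Mettl14 writer complex and bound by readers such as the Ythdf and Igf2bp proteins, and it affects how long a transcript lasts.

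The genes of the sorting markers were read first, as a check of the cell type labels. Ly6a, which encodes Sca-1, was at 38.3 and 31.6 normalised counts in the 2 CMP libraries and at 1514 and 949 in the 2 MPP libraries. Its log2 difference, CMP minus MPP, was -5.07 ± 0.39 (SE), with an adjusted p of 1.83e-08 by limma, the moderated linear model used for every adjusted p below unless another tool is named. Kit, the stem cell factor receptor, was at 408 and 349 in CMP and 489 and 686 in MPP, and Cd34 was at 4288 and 5240 against 6036 and 7433. Both CMP libraries lay below both MPP libraries for Kit and for Cd34, but neither gene passed the test, with adjusted p of 0.84 and 0.761.

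Of 17165 genes tested, 114 were higher in CMP (0.664%) and 419 were lower (2.44%) at an adjusted p under 0.05. The median log2 difference of all genes tested was -0.06. The called genes held megakaryocyte, erythroid and granulocyte genes on the CMP side. Lymphoid, interferon and immunoglobulin genes stood on the MPP side, and 112 of the 419 lower genes (26.7%) were immunoglobulin genes. Without these, 307 genes were lower. In bulk libraries, fewer cells of a type and less RNA per cell cannot be told apart. The 2 CMP input libraries held 16050255 and 14466997 reads and the 2 MPP libraries 19189897 and 17160605. Leaving out any 1 of the 4 libraries reduced the calls to between 34 and 64 higher and between 194 and 249 lower genes, the fewest higher genes being left without MPP replicate 2.

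**Figure D1:**
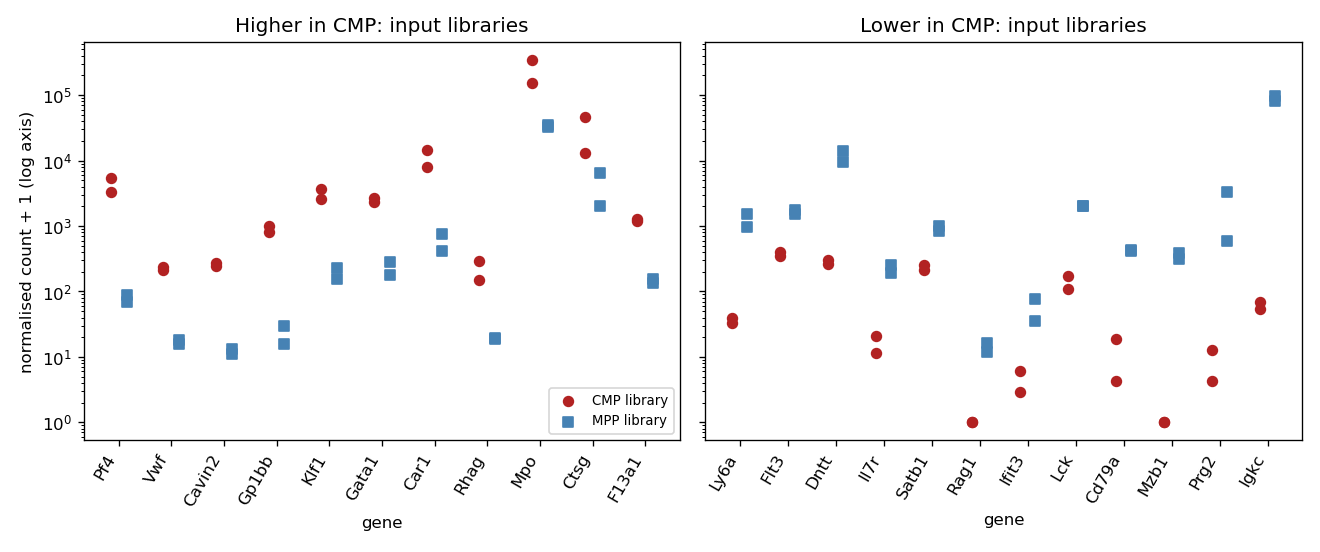
Normalised count plus 1 (log axis) of genes described in the text in each CMP library (red circles) and each MPP library (blue squares) of the atlas input. In every gene shown the 2 CMP libraries lie on one side of the 2 MPP libraries, from Pf4 (5464 and 3360 against 86.7 and 68.4) to Igkc (67.4 and 52.8 against 81274 and 98310).

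Megakaryocytes are the large marrow cells that shed platelets, and of 23 megakaryocyte genes tested 7 were higher in CMP and none was lower, with a list median of 1.88 on the log2 scale. Pf4, which encodes the platelet chemokine platelet factor 4, was at 5464 and 3360 in CMP and at 86.7 and 68.4 in MPP. The 2 groups did not overlap, and the log2 difference was 5.78 ± 0.75 (SE, adjusted p = 3.46e-05), the highest of the called genes that met the naming rule. Vwf, the adhesive protein that tethers platelets to damaged vessel walls, was at 212 and 234 in CMP and 14.7 and 17.1 in MPP (log2 difference 3.73 ± 0.62, adjusted p = 0.000465). Clec1b, the platelet receptor for podoplanin, stood at 44.9 and 58.0 in CMP, while 1 MPP library listed it at 0 and the other at 0.98 (adjusted p = 0.00168). Rab27b, which serves granule release, was at 223 and 226 against 40.7 and 27.1 (log2 difference 2.72 ± 0.41, adjusted p = 0.000147). These 4 genes kept the call with any single library left out, while the count for the list fell to 4 or 5. It was 12 by edgeR, by DESeq2, with a pseudocount of 10 and in the fit on the 4 CMP and MPP libraries alone. Gp1bb and Cavin2, with log2 differences of 5.38 and 4.42, each lost it whichever library was left out, with adjusted p up to 0.221 and 0.134. Cd9, a membrane protein of platelets, also passed, at 2141 and 1851 against 800 and 621, and lost the call without CMP replicate 1 or MPP replicate 2 (adjusted p up to 0.0927). Itga2b and Gp9, a platelet integrin subunit and a von Willebrand factor receptor subunit, had log2 differences of 1.86 and 0.96 and did not pass (adjusted p of 0.0888 and 0.761).

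The erythroid list was called in the same direction, with 12 of 30 tested genes higher in CMP, none lower, and a list median of 1.51. Klf1 and Gata1 encode transcription factors that drive red cell genes. Klf1 was at 2581 and 3689 in CMP against 226 and 154 in MPP, a log2 difference of 4.04 ± 0.64 (SE, adjusted p = 0.000289). Gata1 was at 2340 and 2672 against 279 and 180 (3.47 ± 0.42, adjusted p = 9.43e-06). Both genes were apart in all 4 libraries. Car1, a carbonic anhydrase, was at 14662 and 7973 against 751 and 408 (4.29 ± 0.55, adjusted p = 2.48e-05). The Rh family genes Rhag and Rhd, whose proteins sit in the red cell membrane, had log2 differences of 3.45 and 3.32. The water channel Aqp1 (3.93), the lipid transporter Mfsd2b (3.72), the membrane protein Ermap (3.17) and the haem breakdown enzyme Blvrb (2.19) were also higher. Each of these 9 genes kept the call when any 1 library was left out.

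Globin genes and Alas2, which mark later red cell stages, did not pass. The globin gene Hbb-bs was at 59.0 and 70.3 in CMP and 77.4 and 20.4 in MPP, with overlapping groups (adjusted p = 0.86). Alas2, the erythroid form of the first haem synthesis enzyme, was under 10 normalised counts in all 4 libraries.

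The promoters of the called erythroid and megakaryocyte genes were searched for AGATAA and TGATAA, the letters of the GATA factor motif, on both strands, because the GATA factor gene Gata1 was itself among the called genes. Of the 19 called genes of both lists, 15 had a promoter in the RefSeq table (GRCm38.p6), taken as the 250 bases before and 50 bases after the first start site listed. Either motif was present in 6 of the 15 (40.0%). The share was 18.6% of all 32851 promoters of the table and 12.4% of the first promoters of 12116 tested genes. The letters CCACCC, searched too, were present in 8 of the 15 (53.3%), beside 31.5% and 35.7% of those promoters. In the 4 genes printed here the GATA motif lies within the 110 bases before that first start site. It is shown in capitals, as it reads on the gene's own strand. Each stretch covers bases 110 to 11 upstream of the start site. Klf1 is at chr8:84901872-84901971 (plus strand), Ermap at chr4:119190006-119190105 (minus strand), Rhd at chr4:134864426-134864525 (plus strand) and Rhag at chr17:40811039-40811138 (plus strand).
Klf1: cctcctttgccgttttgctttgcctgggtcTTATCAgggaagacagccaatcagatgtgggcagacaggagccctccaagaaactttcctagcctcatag
Ermap: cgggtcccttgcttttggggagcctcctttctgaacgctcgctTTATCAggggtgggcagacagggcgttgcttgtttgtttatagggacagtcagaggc
Rhd: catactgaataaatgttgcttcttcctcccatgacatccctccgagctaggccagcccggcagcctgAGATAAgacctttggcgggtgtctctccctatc
Rhag: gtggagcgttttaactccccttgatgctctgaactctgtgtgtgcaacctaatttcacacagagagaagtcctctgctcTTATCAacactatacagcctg
The GATA motif starts 80 bases upstream of the start site in Klf1, 67 in Ermap, 43 in Rhd and 31 in Rhag. These distances hold for the start site used here. By the listed gene coordinates Rhag begins at chr17:40811099 and Ermap, on the minus strand, at chr4:119190013, both inside the printed stretches. By those coordinates the Rhag motif lies within the gene and the Ermap motif before it. In Klf1, Ermap and Rhag the letters are TTATCA, the reverse complement of TGATAA. A match of letters describes the sequence, and no binding was measured in these libraries.

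In the granulocyte and monocyte list, 6 of 26 genes were higher in CMP and 1 was lower, with a list median of 0.86. Mpo encodes myeloperoxidase, the main enzyme of the first neutrophil granules. It was at 338021 and 153094 in CMP and 34379 and 32494 in MPP, a log2 difference of 2.77 ± 0.61 (SE, adjusted p = 0.00808). Ctsg and Prtn3, serine proteases of the same granules, had log2 differences of 2.76 and 1.77. F13a1, the clotting factor XIII subunit made by monocytes and platelets, was at 1174 and 1273 against 132 and 157 (3.08 ± 0.37, adjusted p = 9.43e-06). Elane, neutrophil elastase, was higher in both CMP libraries (41288 and 20081 against 15757 and 9331) but did not pass (adjusted p = 0.546). The member lower in CMP was Fcnb, a ficolin of maturing granulocytes, at 6.65 and 3.22 against 107 and 35.6. F13a1 kept the call without any 1 library. Mpo lost it without CMP replicate 1 or either MPP library, with adjusted p up to 0.199, and Ctsg and Prtn3 lost it without CMP replicate 1 or MPP replicate 2, with adjusted p up to 0.6 and 0.493. Fcnb lost it whichever library was left out (adjusted p up to 0.369), and the count of higher genes in the list ran from 1 to 5.

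Among 14 monocyte and macrophage markers, 3 were higher and none was lower. They were F13a1, Ms4a6c and the chemokine receptor Ccr2, which lost its call without either CMP library or without MPP replicate 1 (adjusted p up to 0.301). Ms4a6c was at 6024 and 3335 in CMP against 927 and 553 in MPP (log2 difference 2.64 ± 0.43, adjusted p = 0.000321). The macrophage complement genes C1qa, C1qb and C1qc did not pass, with log2 differences of -1.16, -0.71 and -1.47.

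Few regulators of these lineages passed the test. Of 30 lineage transcription factors, Klf1, Gata1 and Zeb2 were higher in CMP and Satb1 was lower. Gata2 was at 557 and 1589 in CMP and 210 and 418 in MPP (adjusted p = 0.293). Spi1 and Cebpa, which encode the myeloid factors PU.1 and C/EBPα, had log2 differences of 0.62 and 0.48 with adjusted p of 0.603 and 0.956. The interval of the Cebpa difference was wide, with an SE of 0.84. Zeb2 lost its call whichever library was left out (adjusted p up to 0.623).

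Lymphoid priming is the early, low expression of lymphocyte genes in progenitors, and 12 of 20 lymphoid priming genes were lower in CMP and none was higher, with a list median of -2.10. Dntt, the polymerase that adds bases at the joints of antigen receptor genes, was at 301 and 261 in CMP against 13962 and 9473 in MPP. The groups were far apart, and the log2 difference was -5.35 ± 0.50 (SE, adjusted p = 2.93e-07). Il7r, the interleukin-7 receptor, was at 20.0 and 10.3 against 253 and 193 (-3.85 ± 0.43, adjusted p = 3e-06). Satb1, a chromatin organiser of lymphoid cells, was at 251 and 211 against 840 and 996 (-1.98 ± 0.33, adjusted p = 0.000366). Ltb, the cytokine lymphotoxin beta, was at 109 and 243 against 2802 and 3735 (-4.30 ± 0.40, adjusted p = 2.93e-07). Rag1, the recombinase that cuts antigen receptor genes, was listed at 0 in both CMP libraries and at 15.2 and 10.9 in MPP (adjusted p = 0.0031). Flt3, a cytokine receptor of early progenitors, was at 395 and 353 against 1509 and 1756 (-2.12 ± 0.54, adjusted p = 0.0264). Dntt, Il7r, Satb1, Ltb and the gut-homing chemokine receptor Ccr9 kept the call without any 1 library. Flt3 lost it whichever library was left out (adjusted p up to 0.23), Rag1 lost it without MPP replicate 1 (adjusted p = 0.0525), and the count for the list ran from 7 to 9.

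Stem cell regulators had a list median of -0.70, and 23 of 30 had a negative difference, but only Msi2, an RNA-binding protein of stem cells, passed by limma. The count of lower genes in this list depended on the setting: it was 6 by edgeR, 8 by DESeq2, 9 with a pseudocount of 10, 7 in the fit on the 4 libraries alone, and 0 with TMM factors, with no filter on low values or with any 1 library left out. Msi2 was at 225 and 328 in CMP against 628 and 704 in MPP (-1.29 ± 0.34, adjusted p = 0.0357), and it lost the call whichever library was left out (adjusted p up to 0.406). Hlf and Mecom, transcription factors of stem cells, were at 99.0 and 76.7 against 444 and 391 and at 23.3 and 37.4 against 128 and 169. Their groups did not overlap, and their adjusted p were 0.272 and 0.138.

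Of 25 interferon response genes, 24 had a negative difference and 7 were lower in CMP at the threshold, with a list median of -0.90. Ifit3, an interferon-induced antiviral gene, was at 4.99 and 1.93 in CMP and 34.8 and 76.0 in MPP (-3.65 ± 0.64, adjusted p = 0.000814). Ifi27l2a was at 46.6 and 45.1 against 185 and 209 (-2.07 ± 0.32, adjusted p = 0.000179). Irf7, the transcription factor that sustains the interferon response, was at 163 and 222 against 618 and 811 (-1.89 ± 0.48, adjusted p = 0.0242). Ifit3 and Ifi27l2a kept the call without any 1 library, Irf7 lost it whichever was left out (adjusted p up to 0.26), and the count for the list ran from 3 to 7.

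Lists of growth and metabolism genes held 1 called gene in all. All 40 oxidative phosphorylation genes had a positive difference, with a median of 0.65, and none passed the test. For Myc and ribosome biogenesis genes the median was 0.50 with 0 of 25 called, and for glycolysis genes 0.44 with 0 of 15. Among 30 cell cycle genes the median was 0.32. Ccne1, which encodes cyclin E1, was the only one called (log2 difference 1.45, adjusted p = 0.0123), and it lost the call without CMP replicate 2 or either MPP library (adjusted p up to 0.162). No writer, eraser or reader of m6A passed. Mettl3, the catalytic writer subunit, was at 1192 and 759 in CMP and 496 and 562 in MPP (log2 difference 0.85 ± 0.47, adjusted p = 0.554), and Igf2bp2, a reader, was under 17 in all 4 libraries.

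**Figure D2:**
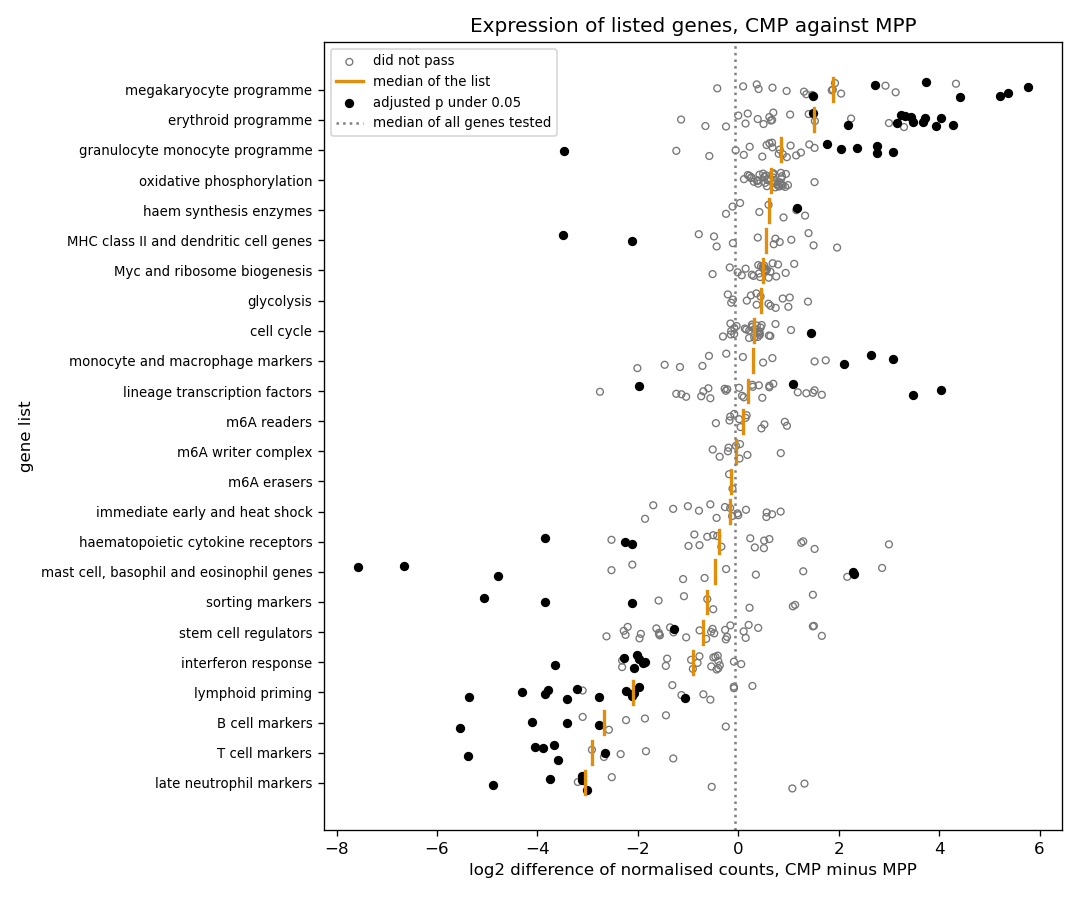
Log2 difference of normalised counts, CMP minus MPP, for each tested member of 24 gene lists, with called genes filled (adjusted p under 0.05) and orange bars at list medians. The megakaryocyte and erythroid lists have the highest medians (1.88 and 1.51), and the lymphoid priming, B cell, T cell and late neutrophil lists the lowest, all under -2, beside a median of -0.06 for all genes (dotted line).

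The lowest values on the CMP side belonged to genes of mature blood cells. Of 247 immunoglobulin genes tested, 112 were lower in CMP and none was higher, and 53 of the 112 were listed at 0 in both CMP libraries. Igkc, the constant region of the kappa light chain, was at 67.4 and 52.8 in CMP against 81274 and 98310 in MPP (log2 difference -10.52 ± 1.33 (SE), adjusted p = 8.47e-05). Jchain, which joins antibody units in plasma cells, was at 6.65 and 12.2 against 8638 and 9562 (-9.82 ± 0.85, adjusted p = 5.02e-07). All 12 lowest called genes by the naming rule were of this kind. Reads of near-identical V segments may be split between genes, so the count of segments is uncertain. Mzb1, a chaperone of antibody-secreting cells, was listed at 0 in both CMP libraries and at 380 and 311 in MPP (adjusted p = 1.76e-07), and was named after its values were seen.

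Immunoglobulin genes took 3.01% and 4.80% of all counts in the MPP input libraries and 0.054% and 0.0836% in the CMP libraries. In the MPP IP libraries the share was 2.45% and 4.23%. Among 16 cell types MPP ranked 3 by mean share (3.90%), after B cells (9.57%) and dendritic cells (5.60%). Among other progenitors, common lymphoid progenitors had a mean share of 1.29% and lymphoid-primed multipotent progenitors 0.832%. Short-term stem cells, which lie just above MPP in the hierarchy, had 0.0928%.

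**Figure D3:**
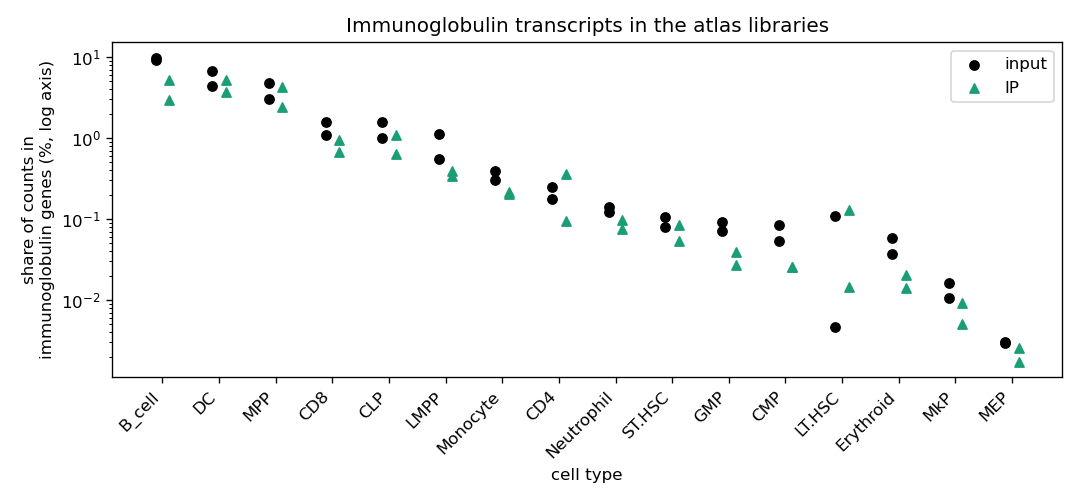
Share of all counts that fell on immunoglobulin genes (percent, log axis) in each atlas input library (black circles) and IP library (green triangles), with cell types ordered by mean input share. The MPP libraries lie between 2.45% and 4.80%, near B cells and dendritic cells, and the CMP libraries lie under 0.1%.

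Most markers of T cells, B cells and late neutrophils moved with the MPP group too. Not all lists of mature cells did: the MHC class II and dendritic cell list had a median of 0.55. In that list 8 of 14 differences were positive, 2 genes were called lower in CMP and none higher. All 11 T cell markers had a negative difference and 6 were called, and their summed level was 294 and 274 in CMP and 3031 and 2724 in MPP. Lck, the kinase beside the T cell receptor, made up most of that sum in MPP, at 2005 and 2052 (110 and 169 in CMP), while Cd3e was at 7.35 and 19.5 in MPP and 0.832 and 1.29 in CMP. All 10 B cell markers had a negative difference and 4 were called. Their summed level was 8589 and 8829 in CMP and 111400 and 146200 in MPP, of which Ighm made up 108497 and 143783 in MPP, and with 1 library left out the count of called B cell markers ran from 1, without MPP replicate 2, to 4. Of 10 late neutrophil markers, 5 were lower in CMP and none was higher. The count of lower late neutrophil markers was 2 with either one of the CMP libraries left out, 1 without MPP replicate 1 and 6 without MPP replicate 2. The summed levels of the 10 late neutrophil markers, 605 and 392 against 1478 and 598, overlapped. No T cell, B cell or late neutrophil marker was at 0 in both MPP libraries, and none was at 0 in both CMP libraries.

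The mast cell, basophil and eosinophil list moved in both directions: of 14 genes tested, 2 were higher in CMP and 3 lower, with 6 positive and 8 negative differences. The higher genes were Hdc, the histamine-forming enzyme, at 938 and 1520 against 289 and 209 (adjusted p = 0.00241), and the protease Gzmb, at 94.0 and 75.4 against 20.6 and 12.8 (adjusted p = 0.0272). Prss34, a basophil protease, was at 76.5 and 46.4 in CMP against 6804 and 5428 in MPP (adjusted p = 0.00151). Prg2, the eosinophil major basic protein, was at 11.6 and 3.22 against 3360 and 582. Epx, eosinophil peroxidase, was listed at 0 in both CMP libraries and at 68.6 and 9.97 in MPP (adjusted p = 0.0343). Prss34 kept the call with any 1 library left out. Hdc lost it without CMP replicate 2 or MPP replicate 2 (adjusted p up to 0.0682), Prg2 without CMP replicate 2 or MPP replicate 1 (up to 0.0718), Gzmb whichever library was left out (up to 0.329), and Epx without either CMP library or without MPP replicate 1 (up to 0.407). The part of the mature-cell markers in the lymphoid and interferon differences was not tested.

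The levels in the other 14 cell types entered the filter and the error estimate of the fit, but not the difference between CMP and MPP, and are given as a description. The 114 genes higher in CMP had their highest mean level most often in erythroid cells (26.3%, against 13.3% of all genes tested), libraries labelled Monocyte (19.3% against 10.9%), megakaryocyte progenitors (18.4% against 6.50%) and megakaryocyte-erythroid progenitors (14.9% against 5.95%). The libraries labelled Monocyte go against that label in part: their mean of the neutrophil gene Ly6g was 75510, against 17640 in those labelled Neutrophil, and they had the highest mean of Prss34, at 260600. Klf1 averaged 33470 in erythroid cells and 22310 in megakaryocyte-erythroid progenitors, against 3135 in CMP. Pf4 averaged 46320 in megakaryocyte progenitors, the only type above CMP (4412). Of the 307 lower genes that were not immunoglobulin genes, 17.3% were highest in CD4 cells and 16.6% in short-term stem cells, against 6.90% and 4.64% of all genes tested. None was highest in granulocyte-monocyte or megakaryocyte-erythroid progenitors, against 4.52% and 5.95% of all genes tested. Dntt and Flt3 had their highest mean of all 16 types in MPP itself, at 11720 and 1633.

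Wild-type cells of the Mettl3 experiment gave the same comparison at lower depth, with 5395534 to 8605098 recovered reads in the input libraries. No gene of 14056 passed by limma (0%), and 336 (2.39%) had an unadjusted p under 0.05 (smallest adjusted p 0.396). Of the 114 genes higher in the atlas CMP, 111 were tested here and 108 had the same sign, beside 64.4% of the 13716 genes tested in both sets. In 83 of the 111 both CMP libraries lay above both MPP libraries, against 13% of all genes tested. Of 253 lower genes that were not immunoglobulin genes, 245 had the same sign and in 170 both CMP libraries lay below both MPP libraries, against 18% of all genes. In none of the 384 atlas-called genes tested here were the libraries wholly apart in the opposite direction. Pf4 was at 4720 and 1704 in CMP and 200 and 261 in MPP, Klf1 at 1705 and 1018 against 359 and 250, and Dntt at 189 and 563 against 3039 and 3397. All 3 genes were apart in the direction seen in the atlas.

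The immunoglobulin share in these MPP libraries was 0.598% and 0.103%, against 0.0577% and 0.0893% in CMP. Igkc was at 14767 and 1099 in MPP and 70.9 and 174 in CMP, and Igha was at 41.8 and 1.13 against 12.1 and 65.8, with overlapping groups. The lymphoid priming list had a median of -1.43 here and the interferon list -0.90, with 25 of 25 interferon genes negative. The megakaryocyte list had a median of 1.91 and the erythroid list 0.78. Summed levels of the erythroid list overlapped, at 23340 and 17330 in CMP and 18710 and 18720 in MPP. So did those of B cell markers (5465 and 6848 against 18640 and 5204) and late neutrophil markers (2976 and 298 against 584 and 218). T cell markers summed to 92.1 and 181 in CMP and 817 and 671 in MPP. The oxidative phosphorylation list had a median of 0.06, with 24 of 40 genes positive.

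**Figure D4:**
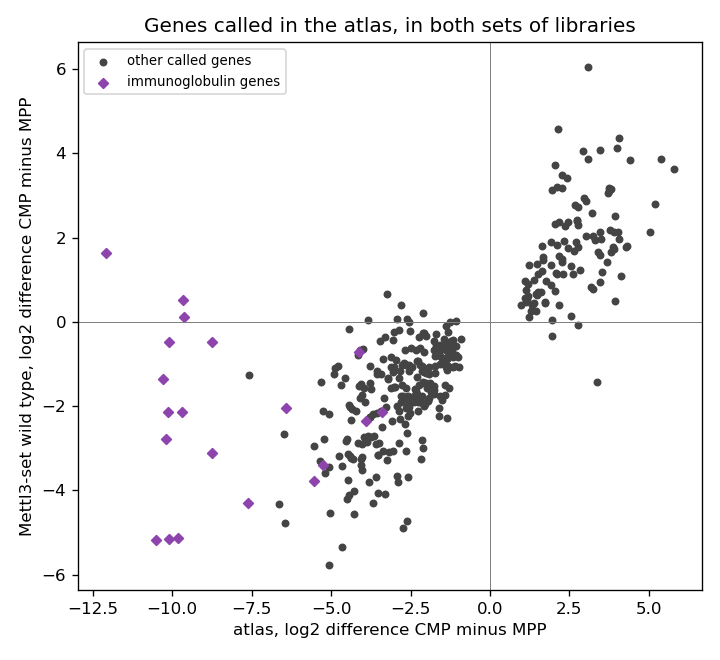
Log2 difference, CMP minus MPP, in the atlas (x axis) and in wild-type cells of the Mettl3 experiment (y axis) for the 384 atlas-called genes tested in both, with immunoglobulin genes as purple diamonds. Most genes lie in the lower left and upper right corners, and Igha lies at -12.08 in the atlas and 1.64 in the other set.

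m6A enrichment was compared as the difference between CMP and MPP in log2 IP minus log2 input, in one limma fit over the 64 atlas libraries with each table scaled on its own. No gene of 16631 passed (0%). The count at an unadjusted p under 0.05 was 49 (0.295%). The edgeR quasi-likelihood test of the interaction also called none, with 77 genes (0.463%) at an unadjusted p under 0.05, or 285 (1.71%) when the fit held just the 8 CMP and MPP libraries. The median SE of the difference was 1.07 on the log2 scale, and 0.72 for the 9778 genes with a mean of at least 50 in both kinds of library. Of those 9778 genes, 98.5% had a difference within 1 log2 unit of 0. At errors of this size differences above 1 log2 unit could also fail to pass, as did that of Ltb, 2.21 ± 1.08 (SE). The lack of calls therefore does not show that enrichment was equal in the 2 cell types.

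IP levels followed input levels for the called genes. Of the 114 genes higher in CMP, 110 had both CMP IP libraries above both MPP IP libraries in CPM (counts scaled to the library total), against 17.4% of all genes tested. Of the 408 lower genes tested here, 394 had both CMP IP libraries below, against 33.2%. Pf4 was at 739 and 1054 CPM in the CMP IP libraries and at 18.6 and 26.4 in the MPP IP libraries. IP minus input for Pf4 was 0.90 and 2.03 in CMP and 1.34 and 2.22 in MPP. Such values per replicate join input and IP libraries by number alone, which the labels do not tie to 1 sample, and they are not used in the test. The difference in enrichment was -0.31 ± 1.30 (SE, adjusted p = 1). Dntt was at 20.3 and 17.4 CPM against 781 and 1020, with a difference in enrichment of -0.05 ± 1.02. Ly6a had a difference of -0.07 ± 0.69, Klf1 of -0.38 ± 1.31 and Gata1 of 0.17 ± 1.77. For each of these 5 genes the difference in enrichment was smaller than its SE.

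**Figure D5:**
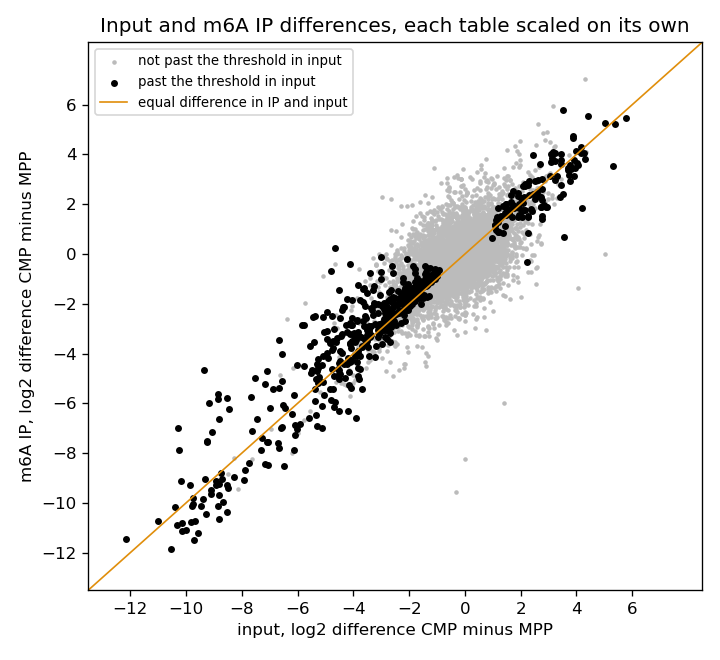
Log2 difference, CMP minus MPP, in input (x axis) and in m6A IP (y axis) for 16631 genes, with genes past the expression threshold in black and the line of equal differences in orange. Called genes lie along the line from the immunoglobulin genes at the lower left to Pf4 at the upper right, and no gene passed the test of the distance from it.

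The medians of the difference in enrichment stood near 0 for most lists, and no member of any list passed. The erythroid list had a median of -0.15, the megakaryocyte list -0.04, the granulocyte and monocyte list 0.19 and the lymphoid priming list -0.06, beside 0.07 for all genes. The genes lower in CMP had a median of 0.31, and the same input values enter both measures with opposite sign, so this median is not independent of their choice. Ltb had IP minus input of -1.23 and -1.57 in CMP and -3.60 and -3.61 in MPP, a difference of 2.21 ± 1.08 (SE) with an unadjusted p of 0.0469 and an adjusted p of 1 by limma. In the Mettl3 set its difference was 1.00 ± 1.67. Srebf2, the regulator of cholesterol synthesis genes, had 0.66 and 0.27 in CMP and -0.63 and -0.31 in MPP, a difference of 0.93 ± 0.48 in the atlas and 0.18 ± 0.88 in the Mettl3 set. Ltb and Srebf2 were named after their values were seen. Of 14 genes with an unadjusted p under 0.05 in the atlas that were tested in the Mettl3 set, 5 had the same sign there and none had an unadjusted p under 0.05. The Mettl3 set itself gave no call among 13359 genes (0%), with 40 (0.299%) at an unadjusted p under 0.05 and a median SE of 1.79.

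New RNA was read from the deposited ratio of T-to-C conversions, which mark transcripts made during labelling. The ratio is given as a percentage, and its denominator is not stated. The median of this percentage over genes was 1.43% and 1.39% in the CMP libraries and 1.59% and 1.71% in the MPP libraries. No gene of 13909 passed by limma (0%), and 474 (3.41%) had an unadjusted p under 0.05. Of 94 tested genes higher in CMP, both CMP libraries lay below both MPP libraries in 32 and above in 9, against 24% and 11.7% of all genes. Pf4 was at 0.397% and 0.34% in CMP and 1.14% and 1.01% in MPP, and Hdc at 0.53% and 0.61% against 1.37% and 1.81%. Both genes had the higher steady-state level in CMP and the lower T-to-C percentage there, and neither passed the new RNA test. Dntt, lower in CMP, was at 0.0107% and 0% in CMP and 0.126% and 0.153% in MPP.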

How the data were processed

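Members and gene lists were chosen with earlier results of these data known. Read trimming tools fastp and Trimmomatic, the quantifier kallisto and the GRCm38 build come from the submitters' processing notes, without order or settings. The authors deposited input RNA as normalised counts, a signal in which the smallest value above 0 in each library is 1 read (100% of values were whole multiples within 0.1 of a read). The authors deposited IP libraries as counts, and the Mettl3 experiment's IP libraries as estimated counts, rounded here to whole numbers. The authors deposited new RNA as the fraction of T-to-C conversions, analysed here as a percent; its depth is unknown.

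For expression, log2(value + 1) was fitted with limma 3.58.1 (R 4.3.3) over 32 atlas input libraries, for genes of at least 10 in 2 or more libraries, with Benjamini-Hochberg adjustment at 0.05. A fold change on this scale understates the change of low genes. Enrichment was the interaction of kind and cell type over 64 libraries, TMM-scaled within each table. The Mettl3 experiment (14 wild-type input libraries) and new RNA (12 libraries, log2(percent + 0.1)) were fitted apart. Alternatives used edgeR 4.0.16 and DESeq2 1.42.0 on recovered reads. The limma fits of atlas expression, atlas enrichment and new RNA were run on simulated data, and the other fits were not. Named genes were the 12 highest and the 12 lowest called genes with a mean of at least 50 over the 4 libraries and no overlap between groups, without Gm and Rik models; the enrichment and new RNA rules found none. Named too were Mettl3, Igf2bp2, Myc, Bmi1, Gata1, Gata2, Spi1, Cebpa and list members. Some genes are not reported here.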

Additional observations from a re-analysis of the deposited data

How the results depend on the processing

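Higher and lower expression calls (114 and 419) were 197 higher with a pseudocount of 10, 74 higher with 0.1, 178 higher by edgeR, and 256 higher and 664 lower by DESeq2. With 1 library left out they ran from 34 to 64 higher and from 194 to 249 lower. Of the 533 calls, 469 were also made by edgeR and 462 by DESeq2. Of 98 called genes followed through 14 of the settings (Epx through 12), 45 kept the call in all of those and 53 lost it in at least 1. By DESeq2 the lists' counts were 11 lower interferon genes, 10 lower T cell markers, 5 higher monocyte and macrophage markers and 5 higher lineage transcription factors. In the fit on the 4 CMP and MPP libraries alone, 3 granulocyte and monocyte genes were higher and 7 B cell markers lower. T cell markers called lower numbered 3 with a pseudocount of 0.1, and late neutrophil markers 3 with a pseudocount of 10. Leaving out immunoglobulin genes was an alternative chosen after seeing the data, as was the enrichment fit on 8 libraries. Enrichment gave 6 higher and 1 lower gene with no filter on low values and none in the other settings. New RNA gave 1 higher and 2 lower genes with a pseudocount of 1 percent, and from 0 to 1 higher with 1 library left out. The cause of these shifts was not tested, except that fewer libraries entered the fits that left 1 out.

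The replicate numbers are not stated to pair CMP with MPP. Deviations of same-numbered libraries correlated across genes at 0.34 in atlas input, -0.01 in IP, 0.48 and 0.38 in the Mettl3 set's input and IP, and 0.02 in new RNA. In atlas input, the table of the expression calls, 0.34 was the highest of all pairs of cell types (median 0.003, lowest -0.13). Elsewhere a different pair was highest, at 0.24 in IP, 0.52 and 0.57 in the Mettl3 set's input and IP, and 0.04 in new RNA. Whether same-numbered CMP and MPP libraries shared an animal or a run was not tested. With the number as a block, expression calls were 118 higher and 423 lower, and the other comparisons stayed at 0 calls. The block was a term shared by all cell types of a fit, set apart for input and IP in enrichment. It cannot remove a deviation that only CMP and MPP share, so these counts do not show whether such pairing matters.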

Other observations

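Genes outside the lists also separated the 2 progenitors. The Gimap genes, small GTPases of lymphocytes named after their values were seen, had 8 members tested, of which 7 were lower in CMP and none was higher. Gimap6 was at 859 and 767 normalised counts in CMP and 4905 and 3581 in MPP, and Gimap5 at 109 and 111 against 632 and 465. On the CMP side, Optn, an autophagy receptor, was at 669 and 979 against 65.6 and 86.0, and Epdr1 at 700.2 and 1417 against 70.5 and 71.2. The CMP and MPP libraries were apart in all 4 genes. Sdc1, the plasma cell surface marker syndecan-1, was at 21.6 and 68.3 in CMP and 175 and 446 in MPP (log2 difference -2.83 ± 0.59 (SE), adjusted p = 0.00489 by limma).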
